A study of Mus musculus with 8 samples.

Results

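The annexins and their S100 partners were followed in mouse liver and liver tumours: Anxa1 to Anxa7, S100a6, S100a10 and S100a11. Members were chosen by gene symbol, as probe sets present on both array types of the study that carry a single platform gene symbol from this list. The list itself was drawn up with earlier results of these arrays in view, so every difference of a member between groups is given as a description. By this rule 9 of the 10 listed genes were found, with 17 probe sets on both array types, out of 18194 named genes on the tumour arrays and 12394 on the liver arrays. The tumour arrays hold 21 probe sets of these genes, and those on the tumour arrays alone were read only as a check on the others. S100a11 was not analysed here, because its probe set carries several symbols.

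The study measured RNA on Affymetrix arrays in p53-/- mice of the C57BL/6J background, so p53 was absent from every sample. Dataset 1 held liver 48 h after intravenous infection with an adenovirus carrying TRF2DBDM, a truncated, dominant-negative form of the telomere protein TRF2, or with the same kind of virus carrying GFP. RNA of 3 mice was pooled for each virus and put on 1 array, so there is no measure of spread in this pair, and the labels do not state the age of these mice. Dataset 2 held HCC, that is liver cell cancer, from mice of 12 to 15 months that carried the HBs transgene. Of these tumours 3 came from mice with telomerase RNA (mTERC+) and 3 from mice without it (mTERC-), each on its own array. The labels state neither the cells in which the virus was active nor the promoter of the HBs transgene.

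Annexins are cytosolic proteins that bind acidic phospholipids of membranes when calcium rises, and they take part in membrane repair, vesicle traffic and the anchoring of actin at membranes. S100 proteins are small EF-hand proteins, several of which clasp the N-terminal tail of a particular annexin. S100A10 pairs with annexin A2 and S100A11 with annexin A1, and the annexin A2 and S100A10 complex at the cell surface binds plasminogen and its activator.

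All samples carry the tissue label hepatocytes, whereas the study design speaks of liver and of tumours. All 8 measured hepatocyte markers passed the filter on low signals in the tumours, with summed signals of 105076.8 to 159635.2, and so did all 12 macrophage, all 8 neutrophil and all 9 endothelial markers measured. The array of mTERC- tumour 2 stood apart. Its ratio of 3' to 5' Gapdh probe sets, a measure of RNA degradation, was 13.8 against 0.983 to 1.18 on the other 5 tumours. The same ratio for Actb differed less, at 2.28 against 1.3 to 1.64. The median signal of this array was 75.1 against 54.5 to 59.4. The 18S control signal was 318.5 on mTERC- tumour 2 and 349 on mTERC- tumour 3, against 11009.8 to 27809.9 on the other 4 tumours. Differences of the members between the tumour groups are therefore given with and without mTERC- tumour 2.

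In the TRF2DBDM pool the annexin A2 and S100A10 pair and annexins A5 and A3 had the lowest signals relative to the GFP pool. Values are MAS5 signals in arbitrary units, and ratios are of signal plus 32. A total of 4 of the 9 members were at least 2-fold lower in the TRF2DBDM pool, where 2.90% of the 7789 genes compared were. No member was at least 2-fold higher, where 4.62% of the genes compared were. In all, 8 of 9 members were lower, where 47.9% of the genes compared were, and the members' median log2 ratio was -0.87 beside 0.02 for all genes compared. These ratios were among the values known when the list was drawn up, and nothing is read from the counts.

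**Figure D1:**
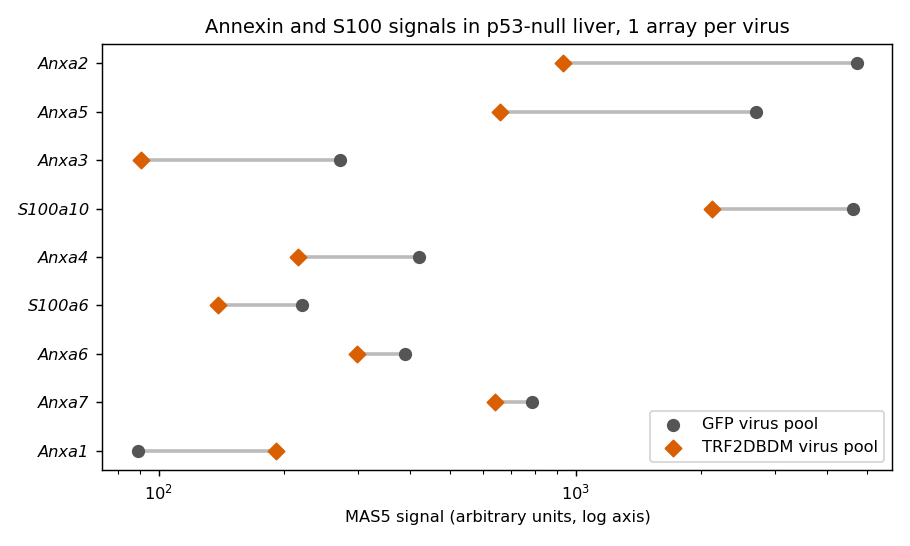
MAS5 signal (arbitrary units, log axis) of the 9 members in the GFP pool (circles) and the TRF2DBDM pool (diamonds), 1 array each, in order of their ratio. Anxa2 lies at 4710.7 and 933.2, and Anxa1, at 89.3 and 191, is the only member with the higher signal in the TRF2DBDM pool.

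The signal of Anxa2, which encodes annexin A2, was 4710.7 in the GFP pool and 933.2 in the TRF2DBDM pool, 4.91-fold lower and rank 8 from the lowest log2 ratio among the 7789 genes compared. S100a10, which encodes its S100 partner, had 4630 in the GFP pool and 2124 in the TRF2DBDM pool, 2.16-fold lower and at rank 170. Both subunits of the complex thus had lower signals in the same pool, by unequal ratios. The second probe set of S100a10 read 1213.3 and 449.5, and that of Anxa2 read 106.6 and 28.2. With the mean of its probe sets in place of the probe set used, the log2 ratio of Anxa2 was -1.17 in place of -2.30, and that mean takes in a probe set below the array median in both pools.

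Anxa5 encodes annexin A5, the phosphatidylserine-binding protein used as a label of dying cells. Its signal was 2710.2 in the GFP pool and 657.1 in the TRF2DBDM pool, 3.98-fold lower and at rank 15. The 250 bases upstream of the RefSeq transcription starts of Anxa2 and Anxa5 are shown because these members had the lowest ratios, and both sequences run 5′ to 3′ on the gene's strand. They come from RefSeq on build GRCm38.p6. Anxa2 lies on the plus strand at chr9:69453433-69453682, and Anxa5 on the minus strand at chr3:36475888-36476137. Capitals mark matches, on either strand, to the AP-1 element TGAGTCA, the GC box GGGCGG, the TATA box TATAAA or the CCAAT box CCAAT.
Anxa2: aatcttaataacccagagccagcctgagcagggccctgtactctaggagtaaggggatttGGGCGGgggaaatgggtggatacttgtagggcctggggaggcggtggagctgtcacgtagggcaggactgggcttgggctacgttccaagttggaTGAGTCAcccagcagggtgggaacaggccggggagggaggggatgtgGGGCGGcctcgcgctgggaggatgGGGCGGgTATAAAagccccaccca
Anxa5: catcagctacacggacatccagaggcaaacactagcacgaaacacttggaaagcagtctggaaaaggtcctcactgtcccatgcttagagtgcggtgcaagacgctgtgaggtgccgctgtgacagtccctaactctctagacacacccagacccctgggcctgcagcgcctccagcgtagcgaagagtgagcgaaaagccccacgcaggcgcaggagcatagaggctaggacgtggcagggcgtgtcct
The Anxa2 window holds 1 AP-1 element, 3 GC boxes and 1 TATA box and no CCAAT box, with a GC content of 62.4%. The Anxa5 window holds no match to any of these motifs and has a GC content of 58.8%, where the median over all windows is 52.4%. Of 32851 upstream windows of the same length, 4.46% hold the AP-1 element, 32.7% the GC box, 12.4% the TATA box and 33.8% the CCAAT box. The members with the lowest ratios thus differ in these letters, and a match is no evidence that a factor binds.

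Anxa3, whose product annexin A3 is abundant in neutrophils, had 272.4 in the GFP pool and 90.7 in the TRF2DBDM pool, 2.48-fold lower and at rank 88. Anxa4, an epithelial annexin, had 420.6 and 215.9, 1.83-fold lower and just inside the 2-fold line. Its second probe set read 322.6 and 105.9, 2.57-fold lower, so the side of the line on which Anxa4 falls depends on the probe set. S100a6, which encodes the small EF-hand protein calcyclin, had 221.1 and 138.4, 1.49-fold lower.

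The other members had signals closer together. Anxa6, which encodes a large annexin of the plasma membrane and endosomes, had 389.4 in the GFP pool and 298 in the TRF2DBDM pool, 1.28-fold lower. Anxa7 had 784.3 and 639.3, 1.22-fold lower. Anxa1, which encodes an anti-inflammatory mediator released by myeloid cells, had 89.3 and 191, 1.84-fold higher. Of the 17 member probe sets, 13 reached the array median in both pools, and 12 of these were lower in the TRF2DBDM pool, 6 of them at least 2-fold.

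Markers of other cell types differed between the pools as well. In bulk tissue, fewer cells of a type and less RNA per cell cannot be told apart. The summed signal of the 8 measured neutrophil markers was 2309.4 in the GFP pool and 1588.2 in the TRF2DBDM pool, with 5 of the 7 compared lower. The summed bile duct cell markers read 11896.4 and 7378, with 4 of 5 compared lower, while the defining markers Krt7, Epcam and Sox9 lay below the array median on both arrays. Most of this sum came from the keratin genes Krt8, at 4390.6 and 2919.7, and Krt18, at 7159.9 and 4174. The sum therefore follows these keratin genes and is no measure of bile duct cells. The summed hepatocyte markers read 32386.3 and 48571.4, with 6 of 7 higher. The summed macrophage markers read 1834.8 and 2819.3, with 7 of 9 compared higher, while the Kupffer cell markers Clec4f, Vsig4 and Marco lay below the array median on both arrays. The part of these shifts in the members' ratios was not tested.

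Genes that work with the annexins were taken from lists that also were drawn up with earlier results known. In the pair of pools 43 of 63 listed genes could be compared. Their median log2 ratio was -0.09, and 23 were lower and 20 higher with TRF2DBDM, where 47.9% of the genes compared were lower. None was at least 2-fold lower, where 2.90% of the genes compared were. At least 2-fold higher were 2 of the 43, where 4.62% of the genes compared were. These were S100a4, an S100 protein of motile cells, at 27.8 and 106.6, and Plg, the plasminogen gene, at 1976.3 and 4026.4. The GFP pool signal of S100a4 lay below that array's median of 46.1. Plat, which encodes the tissue plasminogen activator that binds the annexin A2 complex, read 137.3 in the GFP pool and 64.2 in the TRF2DBDM pool. Cacybp, the calcyclin-binding protein gene, read 60.7 and 137.7. Of the 9 binding partners and receptors compared, 5 were higher and 4 lower. The calpains and penta-EF-hand proteins, other calcium-binding proteins, were lower in 7 of 7 genes, with a median log2 ratio of -0.57. Among them Capn1, a calpain protease gene, read 176.5 and 93.4, Capns1, which encodes the calpain small subunit, 1495.4 and 959.2, and Sri, the sorcin gene, 443.9 and 288.4. The other S100 genes were lower in 4 of 7, and the actin and membrane linkers in 6 of 13, with Vim, the intermediate filament gene, at 2533.9 and 1588.9 and Lgals1, the galectin-1 gene, at 3974.3 and 2596.3. The genes listed for recognition of phosphatidylserine, the lipid that annexin A5 binds, were lower in 2 of 7.

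**Figure D2:**
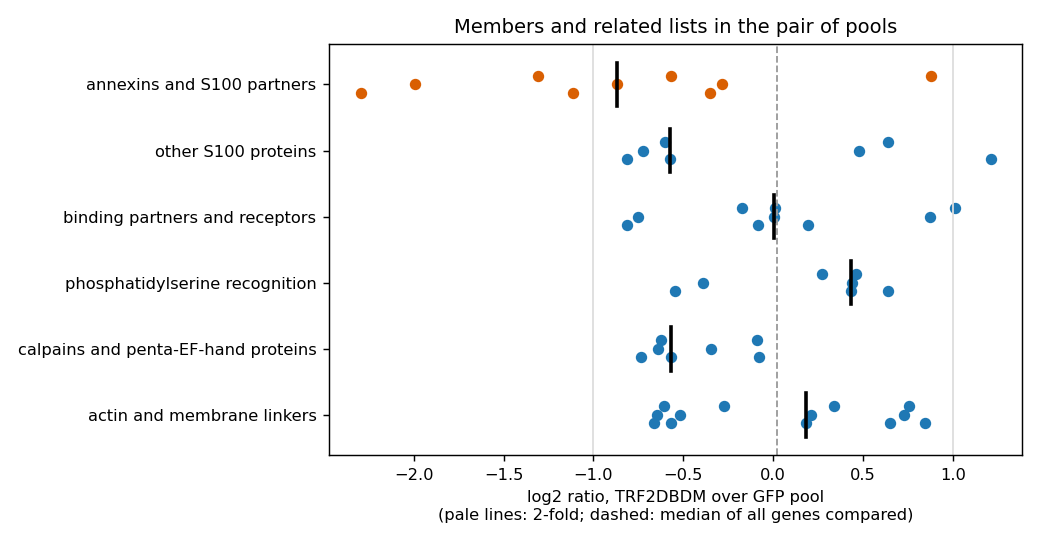
log2 ratio of the TRF2DBDM pool over the GFP pool (horizontal axis) for each gene of the members and of 5 related lists, with black bars at list medians, pale lines at 2-fold and a dashed line at the median of all genes compared. The members' median is -0.87, against -0.57 for the calpains and penta-EF-hand proteins and 0.18 for the actin and membrane linkers.

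In the tumours most annexins and S100 partners had somewhat lower mean signals without telomerase RNA, but no member's difference passed the test. In limma with Benjamini-Hochberg adjustment, 0 of 9 members passed an adjusted p of 0.05, and the smallest adjusted p was 0.953, where 0.00835% of the 11980 genes tested passed. At an unadjusted p of 0.05, 1 of 9 members passed, where 5.04% of the genes tested did. The mean log2 signal was lower in the mTERC- group for 7 of 9 members, where 48.6% of the genes tested had a lower mean there, and the members' median log2 difference was -0.32 beside 0.02 for all genes tested. Without mTERC- tumour 2 the mean was again lower for 7 of 9, with a median of -0.29.

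**Figure D3:**
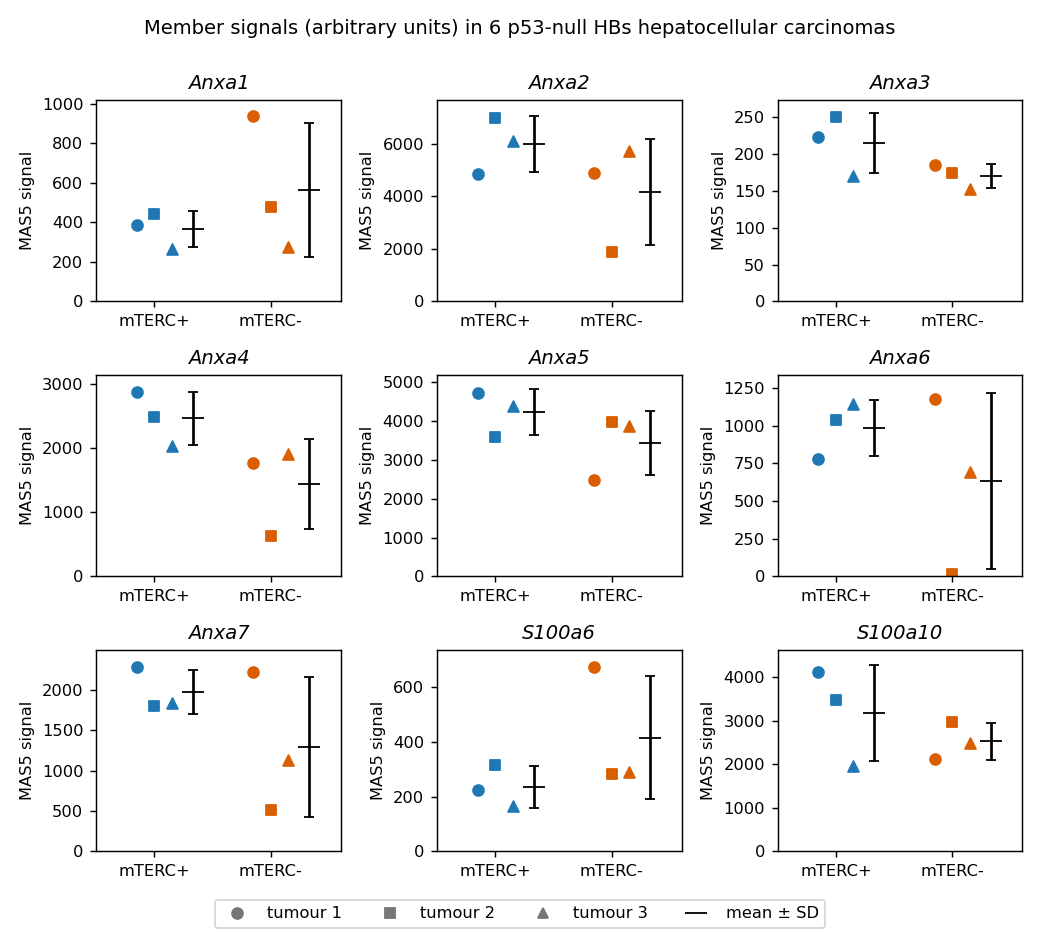
MAS5 signal (arbitrary units, linear axes that start at 0) of each member in the 3 mTERC+ and the 3 mTERC- tumours, with circles, squares and triangles for tumours 1, 2 and 3 of a group and black bars for the mean ± SD. Anxa6 runs from 18.4 on mTERC- tumour 2 to 1180.7 on mTERC- tumour 1.

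Anxa2 had signals of 4857, 6990.8 and 6116.9 in the mTERC+ tumours and of 4885.9, 1885.8 and 5738.1 in the mTERC- tumours. The groups overlapped, and the low value was that of mTERC- tumour 2. The log2 difference, mTERC- minus mTERC+, was -0.65 (SE 0.40), and -0.16 (SE 0.31) without this tumour. The second probe set of Anxa2 read 202.8, 81.7 and 107.8 against 220.2, 27.5 and 255.7. Its log2 difference was 0.07, and 0.80 without mTERC- tumour 2. S100a10 had 4113.5, 3467.6 and 1957.1 in the mTERC+ tumours and 2121.4, 2964.3 and 2492.8 in the mTERC- tumours. The lowest and the highest S100a10 value both belonged to mTERC+ tumours, and the log2 difference was -0.28 (SE 0.35), and -0.40 (SE 0.36) without mTERC- tumour 2. With the mean of the S100a10 probe sets its sign turned, to 0.18, and that mean takes in a probe set that reached the array median on 1 array only. The second probe set of S100a10, which reached the array median on all 6 arrays, had a log2 difference of 0.042. Without mTERC- tumour 2 this was -0.25.

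Anxa5 had 4728.5, 3576.2 and 4392 in the mTERC+ tumours and 2484.5, 3962.6 and 3875.7 in the mTERC- tumours. Its means were 4232 ± 592.5 (SD, n = 3) and 3441 ± 829.4 (SD, n = 3), and the groups overlapped. The log2 difference was -0.32 (SE 0.32), and -0.43 (SE 0.32) without mTERC- tumour 2. Anxa3 had 223.6, 250.5 and 170.4 against 185, 174.1 and 152, a log2 difference of -0.28 (SE 0.36), and of -0.29 (SE 0.38) without mTERC- tumour 2. Anxa5 and Anxa3, both at least 2-fold lower in the TRF2DBDM pool, thus had small differences between the tumour groups beside their errors.

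Anxa4 was the only member whose groups did not overlap, where 4.39% of the genes tested were lower in mTERC- without overlap. Its signals were 2871.5, 2481.4 and 2040.1 in the mTERC+ tumours and 1773.5, 632.3 and 1902.7 in the mTERC- tumours. The means were 2464 ± 416 (SD, n = 3) and 1436 ± 699.2 (SD, n = 3), a log2 difference of -0.90 (SE 0.41; limma unadjusted p = 0.0429, adjusted p = 0.953). Without mTERC- tumour 2 the difference was -0.40 (SE 0.31). Its second probe set read 955.6, 769 and 583.7 against 706.9, 80.8 and 620.5, so those groups overlapped.

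Anxa6 had 777.7, 1037.4 and 1144 in the mTERC+ tumours and 1180.7, 18.4 and 695.2 in the mTERC- tumours. The log2 difference of -1.51 (SE 0.81) was -0.10 (SE 0.36) without mTERC- tumour 2, whose signal was 0.0177 of the median of the other 5. The second probe set of Anxa6 read 433.4, 375.8 and 529.4 against 873.3, 145 and 495.7. Anxa7 had 2282.1, 1795.1 and 1837.5 against 2224.2, 516.6 and 1131.7, a log2 difference of -0.82 (SE 0.44), and of -0.30 (SE 0.35) without mTERC- tumour 2. With the probe sets used, the lowest value of the 6 tumours was again on this array for both genes. The second probe set of Anxa7 read 296.9, 240.4 and 266.2 against 255, 155.3 and 145.6, lowest on mTERC- tumour 3. Its log2 difference was -0.495, and -0.405 without mTERC- tumour 2. With the 18S level as a block the signs of the probe sets used turned, to 0.27 for Anxa6 and 0.18 for Anxa7.

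**Figure D4:**
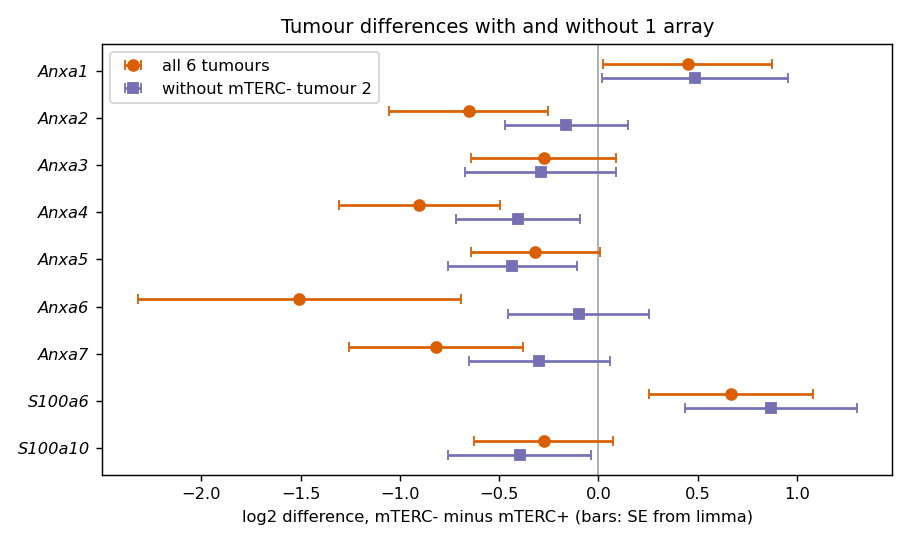
log2 difference of each member, mTERC- minus mTERC+ (horizontal axis), with its standard error, over all 6 tumours and without mTERC- tumour 2. The difference of Anxa6 is -1.51 over all tumours and -0.10 without mTERC- tumour 2, whereas that of S100a6 is 0.67 and 0.87.

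Anxa1 and S100a6 were the members with the higher mean in the mTERC- group. Anxa1 had 388.2, 443.9 and 266.1 in the mTERC+ tumours and 936.8, 475.9 and 276.6 in the mTERC- tumours, a log2 difference of 0.45 (SE 0.43), and of 0.49 (SE 0.47) without mTERC- tumour 2. S100a6 had 223.5, 316.8 and 165.8 against 673.6, 282.5 and 288.2, a log2 difference of 0.67 (SE 0.41), and of 0.87 (SE 0.43) without mTERC- tumour 2. In both genes the groups overlapped, and mTERC- tumour 1 was the highest of the 6. The same tumour had the highest summed signal of the 8 measured neutrophil markers, which was 21861.3, 15242.6 and 9155.1 in the mTERC- tumours and 1344.3, 3032.9 and 352.4 in the mTERC+ tumours. In the mTERC- tumours S100a8 and S100a9 made up most of this sum. The summed macrophage markers were 32837.1, 65142.5 and 10790.7 in the mTERC+ tumours and 19229.7, 12951.5 and 11699.3 in the mTERC- tumours. The part of these cells in the members' signals was not tested.

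By the probe sets used, the members fell into separate sets on the array of mTERC- tumour 2. A total of 4 of 9 members, Anxa2, Anxa4, Anxa6 and Anxa7, had their lowest signal there, where 22.3% of the genes tested did. Their ratios to the median of the other 5 tumours were 0.329 for Anxa2, 0.31 for Anxa4, 0.0177 for Anxa6 and 0.281 for Anxa7. A ratio of 0.33 or less was found in 9.83% of the genes tested. The ratios of the other members were 0.941 to 1.23, and the median over all genes tested was 1.08. Of the 15 member probe sets that reached the array median on 5 or 6 arrays, 9 had a ratio under 0.7, a limit set after the values were seen, and all 9 belonged to these 4 genes. These 9 include the probe sets used, by which the 4 genes were picked. Probe sets of the same genes that reached the median on fewer arrays had ratios of 1.17 for Anxa2, 1.42 and 1.04 for Anxa6 and 1.62 for Anxa7. Over all 14490 probe sets that reached the median on 5 or 6 arrays, 26.9% had a ratio under 0.7. The probe sets of Anxa4, for example, had ratios of 0.31, 0.114 and 0.499, the last from a probe set of the tumour arrays alone. This array also had the 13.8 ratio of 3' to 5' Gapdh signal, beside 2.28 for Actb. The part of RNA degradation in these values was not tested.

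**Figure D5:**
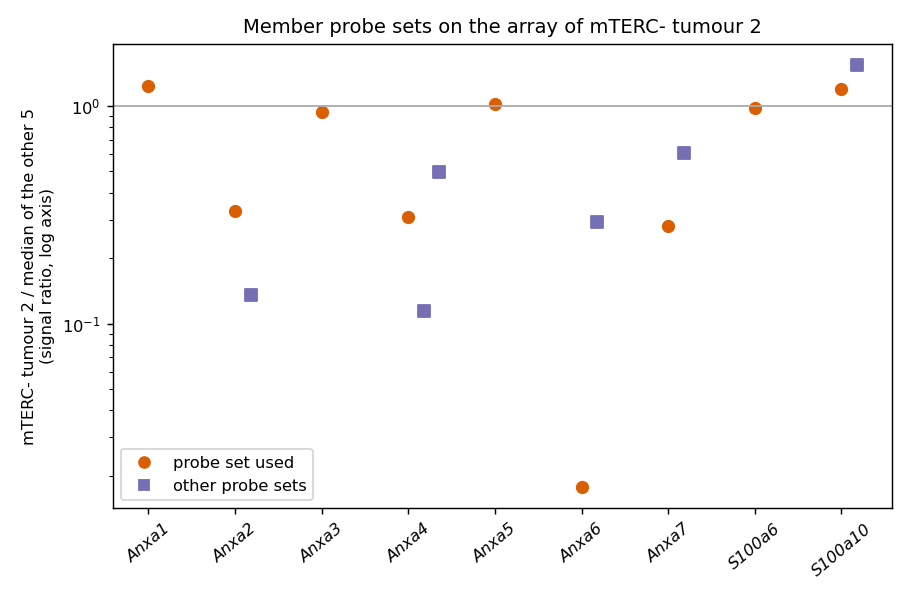
Signal on the array of mTERC- tumour 2 divided by the median of the other 5 tumours (log axis) for the 15 member probe sets that reached the array median on 5 or 6 arrays, with circles for the probe set used and squares for other probe sets. All 9 probe sets under 0.7 belong to Anxa2, Anxa4, Anxa6 and Anxa7, and the other 6 lie between 0.941 and 1.54. Probe sets that reached the median on fewer arrays are not shown.

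Of the 63 related genes, 47 were tested in the tumours, 34 with the lower mean log2 signal in the mTERC- group and 13 with the higher, and the median log2 difference was -0.29. Among all genes tested 48.6% had the lower mean there, and the median was 0.02. Without mTERC- tumour 2 the lower mean was found for 32 of 47 related genes, and their median was -0.13. In limma 1 related gene passed the adjusted p, where 1 of all 11980 genes tested did, or 0.00835%. This gene was S100a8, which encodes a subunit of calprotectin, the S100 complex of neutrophils, with a log2 difference of 3.75 (SE 0.50; limma adjusted p = 0.0246). Its signals were 317.9, 776.4 and 150.4 in the mTERC+ tumours and 7406.9, 6052.8 and 2758.7 in the mTERC- tumours. S100a8 is itself 1 of the neutrophil markers summed above. Together with S100a9, at 10671.1, 8033.2 and 5523.2, it made up most of those sums in the mTERC- tumours. The sums are therefore no separate measure beside S100a8. Leaving out mTERC- tumour 2 gave S100a8 an adjusted p of 0.3 in limma, leaving out mTERC+ tumour 1 gave 0.0987, and leaving out mTERC+ tumour 3 gave 0.104. The calpains and penta-EF-hand proteins had the lower mean in the mTERC- group in 7 of 7 genes, the actin and membrane linkers in 10 of 13, the genes of phosphatidylserine recognition in 8 of 9 and the binding partners and receptors in 4 of 9, and none of these passed the adjusted p. Without mTERC- tumour 2 these counts were 6 of 7, 10 of 13, 7 of 9 and 5 of 9. Among the genes of phosphatidylserine recognition Axl read 559.3, 913.4 and 308.5 in the mTERC+ tumours and 359.5, 202.1 and 200.9 in the mTERC- tumours. Tyro3, the 1 gene of this list with the higher mean, read 68.8, 8.8 and 18.8 against 104.1, 180 and 41.2. Its log2 difference was 1.11 (SE 0.61), and some of its values lay below the array median. Lcp1, the actin-bundling plastin of blood cells, read 2400.9, 1427.2 and 693.2 against 926.9, 347.1 and 586.8. Sugt1, whose product is a known S100A6 ligand, read 939.9, 773 and 703.2 against 508.2, 345.7 and 401.2, and these groups did not overlap (log2 difference -0.90, SE 0.34; limma adjusted p = 0.953). Rasa1, whose product p120 RasGAP binds annexin A6, read 434.2, 477.4 and 398.4 against 270, 201.2 and 250.7, also without overlap. Cacybp had the higher mean in the mTERC- group. It read 494.3, 233.6 and 268.1 against 612.3, 433.9 and 445, a log2 difference of 0.59 (SE 0.38), and the groups overlapped. In all, 7 of the 47 related genes were lower in mTERC- without overlap, where 4.39% of the genes tested were. A further 3 were higher without overlap, where 689 of the 11980 genes tested were. Of the other annexins tested, Anxa9 had a log2 difference of -0.0010 (SE 0.50) and Anxa13 of -0.23 (SE 0.44), and without mTERC- tumour 2 these were 0.34 and 0.29. S100a1, an S100 gene of muscle and other tissues, read 1646.7, 1204.8 and 1446.8 against 1038.3, 190.7 and 620.9, without overlap and with an adjusted p of 0.906 in limma.

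Signals in the tumours and in the liver pools can be set beside each other only as values, since the array types were scaled separately, and no test was made between them. The Anxa2 signal of the GFP pool, 4710.7, lay within the 1885.8 to 6990.8 of the tumours, and that of the TRF2DBDM pool, 933.2, below them. The same held for Anxa5, with 2710.2 in the GFP pool and 657.1 in the TRF2DBDM pool beside 2484.5 to 4728.5 in the tumours. Anxa4 was lower in both pools, at 420.6 and 215.9, than in any tumour, at 632.3 to 2871.5. Anxa1 was likewise lower in both pools, at 89.3 and 191, than in the tumours, at 266.1 to 936.8. For S100a10 the TRF2DBDM pool, at 2124, lay within the 1957.1 to 4113.5 of the tumours and the GFP pool, at 4630, above them.

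The genes whose log2 deviations from their own mean over the 6 tumours lay nearest to those of Anxa2, by root mean square difference, were Ebna1bp2 at 0.10, Glb1 at 0.12, Polr2e and Hspbap1 at 0.13 and Fis1 at 0.14. The root mean square deviation of Anxa2 itself was 0.61. For S100a10, with 0.37, the nearest genes were Ankrd13a, Cfhr2 and Lrfn1, from 0.08 to 0.09, and then Ckap2l and Zfp628 at 0.10. Members were left out of this ranking.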

How the data were processed

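The deposited values are MAS5 signals, a linear intensity per probe set that the authors computed with MAS5, per the submitters' processing notes; its version is not given in the sources used here. Every array has a trimmed mean of 150, with 2% left out at each end. Signals were used as deposited, on log2 of signal plus 32. For a gene with several probe sets, the one of highest mean log2 signal stood for it. A gene was tested in the tumours where this mean reached the median over probe sets, and compared in the pools where its signal reached the array median on at least 1 array. On the tumour arrays 34958 of 45101 probe sets carried 1 symbol and on the liver arrays 20393 of 22690. The tumour groups were fitted by limma 3.58.1 (R 4.3.3; empirical Bayes with variance trend) over all 11980 genes tested, and the code was tested on simulated data. The pair of pools, 1 array each, was compared by ratio with no test. The members and all gene lists were chosen with earlier results of these data known. Named genes were all members, up to 4 genes of each related list with the largest log2 difference, genes called, genes a member binds, and for Anxa2 and S100a10 the 5 tested genes nearest in pattern over the tumours. Alternatives were quantile and median scaling, other pseudocounts (1 and 64), a higher filter (percentile 75) or no level filter, the mean of a gene's probe sets, no variance trend, array weights, the 18S level as a block and each tumour left out. Other probe sets of a member were added after seeing the data. The number of arrays limits the precision.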

Additional observations from a re-analysis of the deposited data

How the results depend on the processing

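No paired analysis was possible because the labels pair no tumours and replicate numbers only follow the order of the samples. No member was called in the tumours in any of the 16 alternatives. Leaving out each tumour in turn gave a median log2 difference of the members of -0.59 to -0.24, a median of the related genes of -0.37 to -0.13, and 0 to 2 related genes called. That number was 0 with median centring, a pseudocount of 1, the filter at percentile 75, the mean of probe sets, no variance trend and the 18S block. In the pools, 1 member (Anxa1), 4 related genes higher and 1 lower passed 2-fold with a pseudocount of 1. Quantile scaling, median centring, a pseudocount of 64 and percentile 75 left 1 related gene at least 2-fold higher. Median centring moved the median log2 ratio of all genes in the pools from 0.02 to -0.09. The members at least 2-fold lower numbered 4 in each alternative except the mean of probe sets, with 5. In the tumours the sign turned for S100a10 with the mean of probe sets (0.18), and for Anxa6 (0.27) and Anxa7 (0.18) with the 18S block, which leaves mTERC- tumour 1 as the only mTERC- tumour beside the mTERC+ group. It also turned for other probe sets, at 0.07 for Anxa2, 0.20 for Anxa6, and 0.042 and 0.78 for S100a10, the last from a probe set that reached the array median on 1 array only. The cause was not tested. With 3 tumours a group and 1 pool per virus, smaller differences are not detectable, and the pools carry no error.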

Other observations

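Anxa13, an annexin of intestinal and other epithelia, was chosen here after its values were seen. Its signal was 1377.5, 1148.9 and 1901.5 in the mTERC+ tumours and 2339.9, 579.4 and 1332.8 in the mTERC- tumours. In the liver pools it was 35.1 with the GFP virus and 23.9 with the TRF2DBDM virus, below the array median of each pool, at 46.1 and 52.5. The array types were scaled separately and no test was made between them. The tumour groups overlapped, with the lowest value on mTERC- tumour 2.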
